A study of Mus musculus with 35 samples.

Results

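The genes described here are 41 listed members of the amino acid and tRNA synthetase programme of the transcription factor ATF4, chosen by name, of which 39 have a row among the 9239 genes of the deposited count table. The other 2, Slc7a11 and Vldlr, have length-scaled values only. The members were chosen with earlier results of these data known. ATF4 is a basic leucine zipper protein whose mRNA is translated more when the initiation factor eIF2 is phosphorylated, as happens when amino acids run short or proteins fold badly in the endoplasmic reticulum. It binds DNA as a dimer with C/EBP proteins and switches on genes that import amino acids, make them and load them onto tRNAs, and genes that feed back on the response or lead to cell death. Chtop, the protein depleted here, binds RNA and works with the TREX complex, which carries mRNA out of the nucleus.

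Poly(A) RNA was sequenced from N2a Flp-In rtTA cells, a mouse neuroblastoma line that carries a doxycycline-controlled transactivator and 1 integration site for a cDNA. There were 2 such lines, each holding a FLAG-tagged Chtop cDNA: mEx5, without exon 5, and pEx5, with it. Each line had 3 conditions, called here rescue (Chtop siRNA plus doxycycline, which turns on the cDNA), knockdown (Chtop siRNA without doxycycline) and control (a non-targeting siRNA pool without doxycycline), and RNA from 3 fractions: total lysate, nuclei and cytoplasm. The medium was changed, with or without doxycycline, at 24 h after transfection, and cells were harvested at 72 h, with 20% of each sample kept as total lysate. Each of the 18 groups had 2 biological replicates, except the cytoplasmic control of the pEx5 line, which had 1, giving 35 libraries. No group received doxycycline with the control siRNA, and no spike-in RNA is named, so every level is relative to the rest of its library.

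Each total lysate library summed to between 20652832 and 36102129 counts, each nuclear library to between 11681781 and 28705620, and each cytoplasmic library to between 19478702 and 40105458. Chtop in total lysate stood at 187, 214, 289 and 198 CPM (counts scaled to the TMM-adjusted library total within a fraction) in rescue libraries, at 33.1, 34.1, 22.1 and 19.4 CPM in knockdown libraries and at 141, 139.9, 137 and 125 CPM in control libraries. Here and below, values per library run in the order mEx5 replicates 1 and 2, then pEx5 replicates 1 and 2. The knockdown of Chtop was thus seen in every total lysate library (log2 fold change -2.36, SE 0.12). It was smaller in nuclei, with a mean of 63.3 CPM in knockdown and 113 CPM in control, against 23.7 and 145 CPM in cytoplasm. The nuclear to cytoplasmic ratio of Chtop rose with the knockdown by 1.80 on the log2 scale (SE 0.15). Reads of the cDNA and of the cell's own Chtop are counted together. Of 16 listed markers of sympathetic neuroblastoma, 12 had counts, and Phox2a (195 to 291 RPKM in total lysate), Hand2 (201 to 257) and Tubb3 (536 to 810) were high, while the catecholamine enzymes Th (0.30 to 0.94 RPKM) and Dbh (0.29 to 2.77 RPKM) were near 0. None of the fibroblast, immune and endothelial markers had a row in the count table. Malat1, a nuclear noncoding RNA, stood at 179 to 224 RPKM in control nuclei, against 13.1 to 16.7 RPKM in control cytoplasm.

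ATF4 dimers bind a composite of an ATF half-site and a C/EBP half-site, which was searched for as TGATGNAA on both strands of RefSeq promoter windows of 300 bases (GRCm38.p6). It was present in 12 of the 32 members with a window there (37.5%), against 1219 of 27025 genes (4.51%). The other 7 members, Lars, Nars, Slc7a5, Cth, Cars, Slc1a5 and Wars, were not searched. The members with a match were Aars, with 2 matches, and Asns, Atf3, Chac1, Gars, Iars, Nupr1, Pycr1, Slc1a4, Tars, Trib3 and Yars. The search letters for a plain cyclic AMP response element, TGACGTNA, were found in 1 of these 32 members, Atf3, against 3.36% of genes. A match is a string of letters and no measure of binding. The following 5 windows, with 12 bases on each side of the match where it reads as searched, show the element upstream of members of 4 of the 5 role groups, with the match in capitals and its distance in bases from the RefSeq start that the window is built on. The longer GENCODE spans of Asns and Atf3 reach past that start, so their matches lie inside those spans.
Asns, chr6:7693213-7693244, minus strand, 23 bases upstream: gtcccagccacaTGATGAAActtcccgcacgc
Pycr1, chr11:120643832-120643863, minus strand, 103 bases upstream: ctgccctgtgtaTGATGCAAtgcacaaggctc
Chac1, chr2:119351037-119351068, minus strand, 193 bases upstream: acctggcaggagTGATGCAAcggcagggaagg
Atf3, chr1:191183424-191183455, plus strand, 110 bases upstream: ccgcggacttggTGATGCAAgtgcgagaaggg
Gars, chr6:55037959-55037990, minus strand, 30 bases upstream: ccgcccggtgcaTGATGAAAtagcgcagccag

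Under control siRNA the programme was well expressed. On the deposited RPKM scale, which is per transcript length, the 39 members had a median of 110 RPKM in control total lysate, against 26.1 RPKM for all counted genes. Asns, asparagine synthetase, was highest at 879 ± 28.1 RPKM (SD, n = 4), with no overlap with Slc3a2 (745 ± 8.88), the heavy chain of several amino acid exchangers. The ranges of Slc3a2 and of Atf4 itself (689 ± 46.7) overlapped, and both lay above Gars (542 ± 21.4) and Sars (499 ± 24.6), the glycyl and seryl tRNA synthetases. The lowest members were Stc2 (13.1 ± 1.30 RPKM), a secreted glycoprotein, and Atf3 (10.4 ± 3.16 RPKM), a stress-induced repressor, whose ranges overlapped. Only 12 of the 38 neighbouring pairs in this order were parted by a gap between their ranges, so that the middle of the order is loose.

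Chtop knockdown lowered more of these genes than it raised in total lysate, and Atf4 itself was not called. Of 39 members, 15 fell and 5 rose, and 19 were not called (edgeR quasi-likelihood test, adjusted p under 0.05 over all genes tested). The replicate number was not in this model, and results with it are given below. The background of this comparison is high: 43.9% of all 9237 genes tested were called, 22.6% lower and 21.4% higher. The called share of members in both directions together, 20 of 39, is therefore near that of all genes, and the members' split leaned to the lower side. The median log2 fold change was -0.14 over the members and 0.01 over all genes tested. The knockdown and control ranges did not overlap for 20 members, of which 15 were below and 5 above control. Of all genes tested, 38.8% had ranges that did not overlap, 19.6% below and 19.2% above control.

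**Figure D1:**
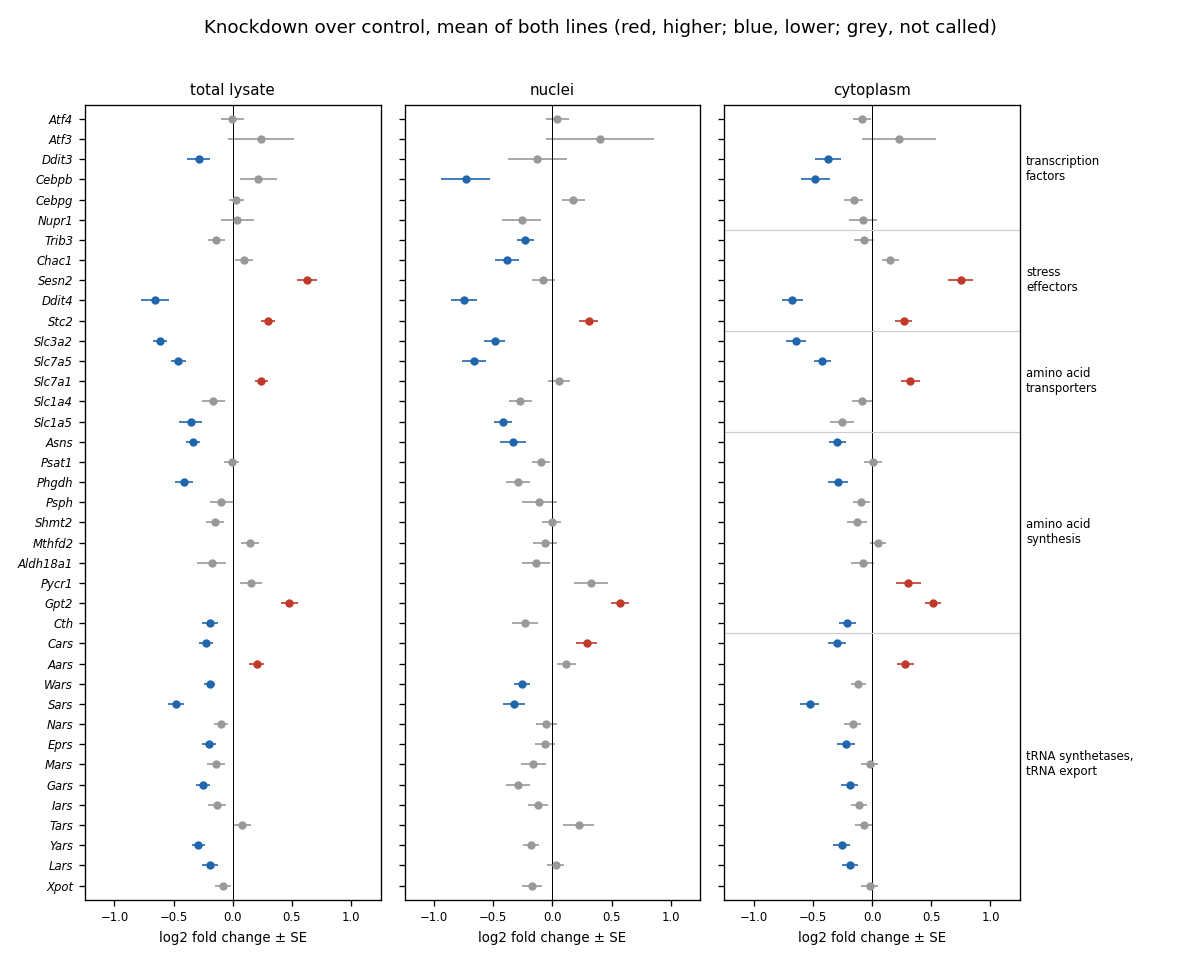
Knockdown over control as log2 fold change with its SE for the 39 members in rows, ordered by role, in total lysate, nuclei and cytoplasm, as the mean of both lines. Blue points fell, red points rose and grey points were not called; Slc3a2, Slc7a5 and Ddit4 are blue and Gpt2 is red in all 3 fractions, while Sesn2 is red in total lysate and cytoplasm only.

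Among the 6 transcription factors, 1 was called in total lysate without the replicate number in the model. Atf4 (chromosome 15, 80255184 to 80257541, plus strand, mm10) had 1040.1, 871, 959 and 861 CPM in knockdown libraries and 968, 891, 1013 and 870.4 CPM in control libraries. The 2 sets overlapped throughout, and the log2 fold change was -0.00 (SE 0.10, edgeR adjusted p = 0.97). Ddit3 (CHOP, a partner of C/EBP proteins that promotes cell death; chromosome 10, 127290774 to 127296288, plus strand) had 119, 93.3, 113 and 117 CPM in knockdown libraries and 136, 123, 138 and 144 CPM in control libraries. Every knockdown library was below every control library, a fall of 0.29 on the log2 scale (SE 0.10, edgeR adjusted p = 0.033). That call was lost when any of 7 of the 12 libraries was left out, with an adjusted p of up to 0.11, and 68 exon bases of Ddit3 overlap Mars on the other strand. Atf3 had 27.2, 16.7, 22.3 and 14.8 CPM in knockdown libraries, against 22.6, 14.2, 20.2 and 11.5 CPM in control libraries. Replicate 1 was above replicate 2 in each of these 4 pairs, and the difference of 0.24 (SE 0.28) was not called without the replicate number in the model. Cebpb (0.22, SE 0.16), Cebpg (0.03, SE 0.06) and Nupr1 (0.04, SE 0.14) were not called either. Atf3 and Cebpb were called higher with the replicate number in the model. For Cebpb this is the mean of 2 lines with opposite signs, and Cebpb fell in nuclei and cytoplasm, as given below.

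The stress effectors split. Ddit4 (REDD1, which restrains mTORC1; chromosome 10, 59949669 to 59951834, minus strand) had 294, 333, 285 and 372 CPM in knockdown libraries and 466, 501, 446 and 609 CPM in control libraries. No libraries overlapped, and Ddit4 fell by 0.65 on the log2 scale (SE 0.12, edgeR adjusted p = 0.0018), the largest fall among the members. Sesn2 (sestrin 2, a leucine sensor that also restrains mTORC1; chromosome 4, 132492032 to 132510501, minus strand) moved the other way, with 157, 149, 191 and 175 CPM in knockdown libraries and 105, 92.9, 134 and 103 CPM in control libraries. Every knockdown library was above every control library, and the log2 fold change of 0.63 (SE 0.08, edgeR adjusted p = 0.00034) was the largest rise among the members. Stc2 also rose (0.30, SE 0.06, edgeR adjusted p = 0.0030). Chac1, which degrades glutathione (0.09, SE 0.08), and Trib3, a pseudokinase that inhibits ATF4 (-0.14, SE 0.07), were not called. Trib3 was called with the replicate number in the model.

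Of the 5 counted amino acid transporters, 3 fell and 1 rose. Slc3a2 (chromosome 19, 8706882 to 8723369, minus strand) had 598, 603, 573 and 599 CPM in knockdown libraries and 899, 896, 927 and 916 CPM in control libraries. Both sets were tight and far apart, and Slc3a2 fell by 0.62 on the log2 scale (SE 0.06, edgeR adjusted p = 4.3e-05). Its light chain Slc7a5 (LAT1, which exchanges large neutral amino acids) had 789, 867, 804 and 815 CPM in knockdown libraries and 1128, 1089.8, 1211 and 1076 CPM in control libraries. These too did not overlap, and the fall was 0.46 on the log2 scale (SE 0.07, edgeR adjusted p = 0.00047). Slc1a5 (ASCT2, a glutamine carrier) fell by 0.36 on the log2 scale (SE 0.10, edgeR adjusted p = 0.013), a call lost without control replicate 2 of the mEx5 or of the pEx5 line (adjusted p up to 0.056). Slc7a1 (CAT1, which imports arginine and lysine) had 188, 197, 211 and 213 CPM in knockdown libraries and 161, 163, 182 and 178 CPM in control libraries. It was higher in each knockdown library than in any control library, with a log2 fold change of 0.24 (SE 0.06, edgeR adjusted p = 0.0075). Slc1a4 (ASCT1, -0.16, SE 0.10) was called only with the replicate number in the model. Slc7a11, the cystine carrier, has only RPKM values, untested here: 2.31 to 3.23 in knockdown, against 1.86 to 2.24 in control total lysate. Vldlr, a lipoprotein receptor, was at most 0.04 RPKM in any library.

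Of the 10 genes of amino acid synthesis, 3 fell, 1 rose and 6 were not called. Gpt2 (mitochondrial alanine aminotransferase; chromosome 8, 85492576 to 85527560, plus strand) had 148, 171, 155 and 166 CPM in knockdown libraries and 123, 117, 115 and 106 CPM in control libraries. There was no overlap, and the log2 fold change was 0.48 (SE 0.07, edgeR adjusted p = 0.00055). Phgdh, the first enzyme of serine synthesis, had 528, 584, 526 and 550.4 CPM in knockdown libraries and 723, 769, 676 and 741 CPM in control libraries. The knockdown libraries were all lower, and the fall was 0.41 on the log2 scale (SE 0.08, edgeR adjusted p = 0.0023). The next steps of the same pathway did not pass the test: Psat1 had a log2 fold change of -0.01 (SE 0.07) and Psph of -0.10 (SE 0.10). Psph shares 452 exon bases with Cct6a on the other strand. Asns had 842, 825, 891 and 914 CPM in knockdown libraries and 1099, 1056, 1099.8 and 1132 CPM in control libraries, again without overlap. Its fall was 0.34 on the log2 scale (SE 0.06, edgeR adjusted p = 0.0017). Cth, which makes cysteine from cystathionine, fell by 0.19 on the log2 scale (SE 0.07, edgeR adjusted p = 0.049), a call lost when any of 10 of 12 libraries was left out (adjusted p up to 0.16). The proline enzymes Aldh18a1 (-0.18, SE 0.13) and Pycr1 (0.15, SE 0.09) and the mitochondrial folate enzymes Shmt2 (-0.15, SE 0.08) and Mthfd2 (0.15, SE 0.08) were not called. Each of them was called with the replicate number in the model.

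The tRNA synthetases fell more often than they rose, by small amounts. Of 12 synthetases and the tRNA exporter Xpot, 7 fell and 1 rose. Sars (chromosome 3, 108424865 to 108445209, minus strand) had 614, 624, 570.0 and 593 CPM in knockdown libraries and 840.0, 855, 786 and 865 CPM in control libraries. The 2 sets did not overlap, and the fall of 0.48 on the log2 scale (SE 0.06, edgeR adjusted p = 0.00034) was the largest of the group. The other synthetases that fell did so by 0.19 to 0.29 on the log2 scale: Yars (-0.29, SE 0.05), Gars (-0.25, SE 0.06), Cars (-0.22, SE 0.06), Eprs (-0.20, SE 0.06), Wars (-0.20, SE 0.05) and Lars (-0.19, SE 0.07). The suffix ars follows the letter of the amino acid that the enzyme loads, with Eprs serving glutamate and proline. Aars, the alanyl enzyme, was the exception, with 973, 1036, 1011 and 1025 CPM in knockdown libraries and 855, 843, 904 and 918 CPM in control libraries. Every knockdown library was above every control library, with a log2 fold change of 0.20 (SE 0.06, edgeR adjusted p = 0.030). Aars shares 1326 exon bases with Exosc6 on the same strand. Exosc6 had no row among the counted genes and 0 RPKM in control total lysate. Leaving out single libraries ended the call of Aars in 7 of 12 cases (adjusted p up to 0.092), of Eprs in 5 (up to 0.067), of Lars in 9 (up to 0.16) and of Cars in 1, control replicate 1 of the mEx5 line (0.054). Iars, Mars, Nars, Tars and Xpot lay between -0.14 and 0.08 and were not called. Iars and Mars were called with the replicate number in the model.

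**Figure D2:**
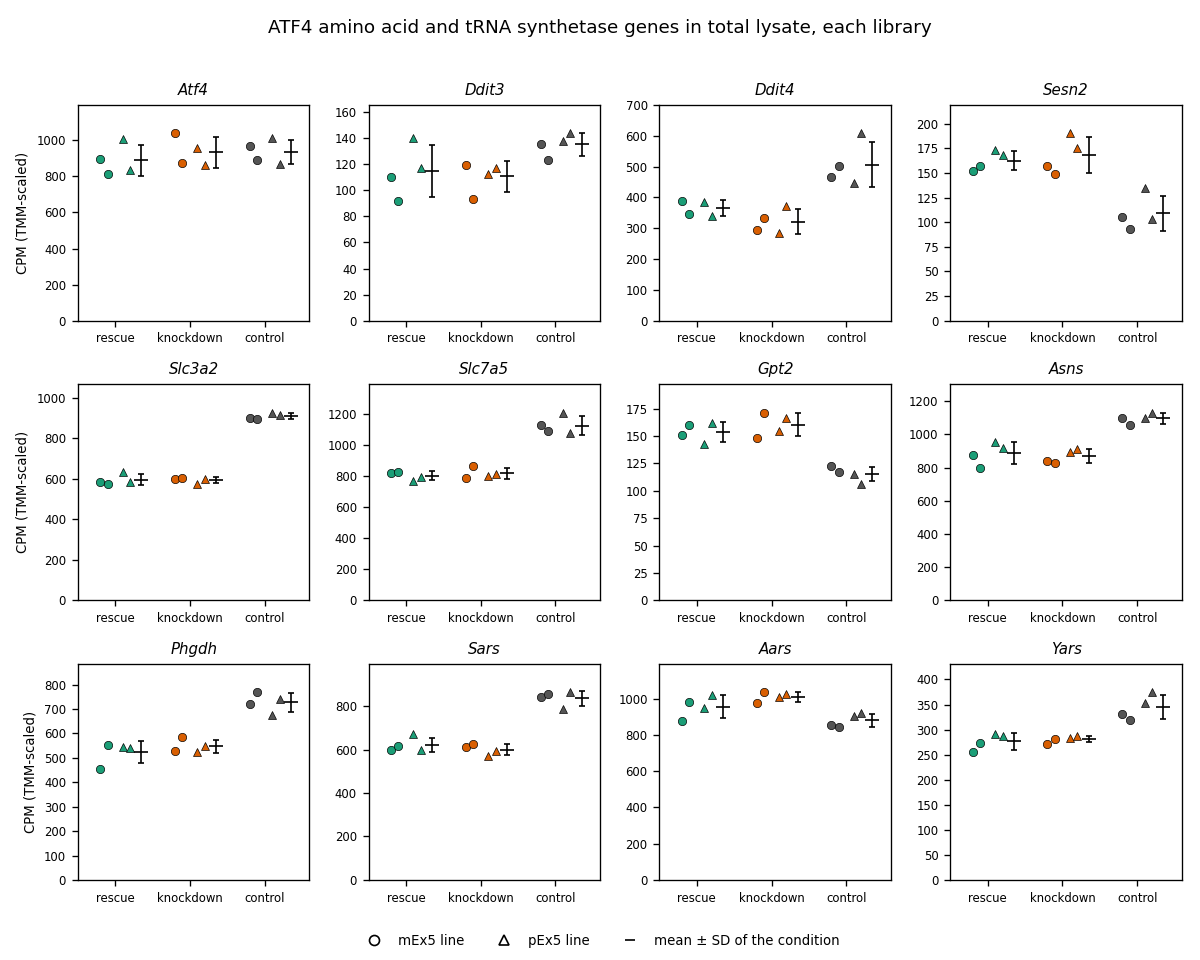
TMM-scaled CPM in total lysate of 12 members in each rescue, knockdown and control library, from left to right, with circles for the mEx5 line and triangles for the pEx5 line and the mean with SD of each condition beside them. Rescue and knockdown libraries of Slc3a2, Slc7a5 and Sars sit together below the control libraries, those of Sesn2 and Gpt2 sit above them, and Atf4 shows no separation.

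Replicate numbers paired the libraries of total lysate and nuclei, where same-numbered libraries deviated together. With the replicate number as a block, 30 members were called in total lysate, 21 lower and 9 higher, while the background rose to 62.9% of genes. The 10 members added were Aldh18a1, Atf3, Cebpb, Iars, Mars, Mthfd2, Pycr1, Shmt2, Slc1a4 and Trib3.

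In nuclei, fewer members were called. With 10 lower and 3 higher of 39, against 31.4% of all 9239 genes called (16% lower, 15.4% higher), the share of members was again near the background. Blocking by replicate number called 24, of which 18 were lower, against 55.4% of all genes. The median log2 fold change was -0.13 over the members and 0.00 over all genes. Ddit4 had 238, 282, 224 and 275 CPM in knockdown nuclei and 451, 414, 387 and 465 CPM in control nuclei, a fall of 0.75 on the log2 scale (SE 0.11, edgeR adjusted p = 0.00092). Slc7a5 had 555, 515, 504 and 441 CPM in knockdown nuclei and 809, 646, 926 and 813 CPM in control nuclei, a fall of 0.66 (SE 0.10, edgeR adjusted p = 0.0011). In both, every knockdown library was below every control library. Gpt2 was the clearest rise in nuclei, with 169, 175, 194 and 204 CPM in knockdown and 125, 126, 127 and 119.9 CPM in control (log2 fold change 0.57, SE 0.07, edgeR adjusted p = 0.00051). Slc3a2 (-0.49, SE 0.09) and Slc1a5 (-0.42, SE 0.07) also fell, and these 5 genes were the members called in nuclei under every setting tried. Asns, Cars, Cebpb, Chac1, Sars, Stc2, Trib3 and Wars were called as well but lost their call without 1 or another library, where the count of members called ranged from 7 (without mEx5 control replicate 2) to 15.

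In cytoplasm, 14 members fell and 6 rose, against 40.7% of all 9238 genes called (20.9% lower, 19.8% higher). The median log2 fold change was -0.11 over the members and 0.00 over all genes. Slc3a2 fell by 0.65 on the log2 scale (SE 0.08), Ddit4 by 0.68 (SE 0.09), Sars by 0.53 (SE 0.08) and Slc7a5 by 0.42 (SE 0.07), and Gpt2 rose by 0.51 (SE 0.07), all with edgeR adjusted p between 0.00014 and 0.0010. Pycr1, the last enzyme of proline synthesis, was called in this fraction (0.31, SE 0.11, edgeR adjusted p = 0.039) and lost the call without any of 5 of 10 libraries. Its log2 fold changes in nuclei (0.32, SE 0.14) and total lysate (0.15, SE 0.09) had the same sign and were called with the replicate block (adjusted p = 0.00056 in nuclei and 0.027 in total lysate), and the change of its nuclear to cytoplasmic ratio was 0.03 (SE 0.20). The cytoplasmic count fell to 13 without control replicate 1 of the mEx5 line. With the replicate block, 23 members were called in cytoplasm, 15 lower and 8 higher, against 49.5% of all genes. The block added Atf3, Chac1 and Slc1a5. Slc7a11 had 4.64 to 7.0 RPKM in knockdown cytoplasm and 2.73 to 3.33 RPKM in control cytoplasm, untested and outside the count table.

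The place of the members' mRNAs in the cell was read from the control libraries. Relative to the typical gene, 17 members were higher in cytoplasm and 6 in nuclei, where 69.9% of all genes were called, 36.1% higher in cytoplasm and 33.8% in nuclei. Of the 10 genes of amino acid synthesis, 8 were cytoplasmic and none nuclear, with a median log2 nuclear to cytoplasmic ratio of -0.57, against -0.03 over all genes. One of the 8, Aldh18a1 (-0.28, edgeR adjusted p = 0.045), lost its call when any of 14 of 22 libraries was left out (adjusted p up to 0.14) and with DESeq2 size factors. The synthetases and Xpot were mixed, with 5 cytoplasmic and 3 nuclear of 13, as were the stress effectors (2 and 2 of 5) and transporters (1 and 1 of 5), and 1 of 6 transcription factors was cytoplasmic. A difference between roles was not tested. Among the genes of amino acid synthesis, Mthfd2 (-0.76, SE 0.09), Psph (-0.64, SE 0.13) and Psat1 (-0.60, SE 0.07) were the farthest. The cytoplasmic transporter was Slc7a5 (-0.61, SE 0.09). The nuclear members were Stc2 (0.80, SE 0.08), Sesn2 (0.71, SE 0.11), Cars (0.64, SE 0.09), Slc3a2 (0.36, SE 0.09), Aars (0.30, SE 0.08) and Lars (0.23, SE 0.07). Atf4 was near even (-0.13, SE 0.09, edgeR adjusted p = 0.21).

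**Figure D3:**
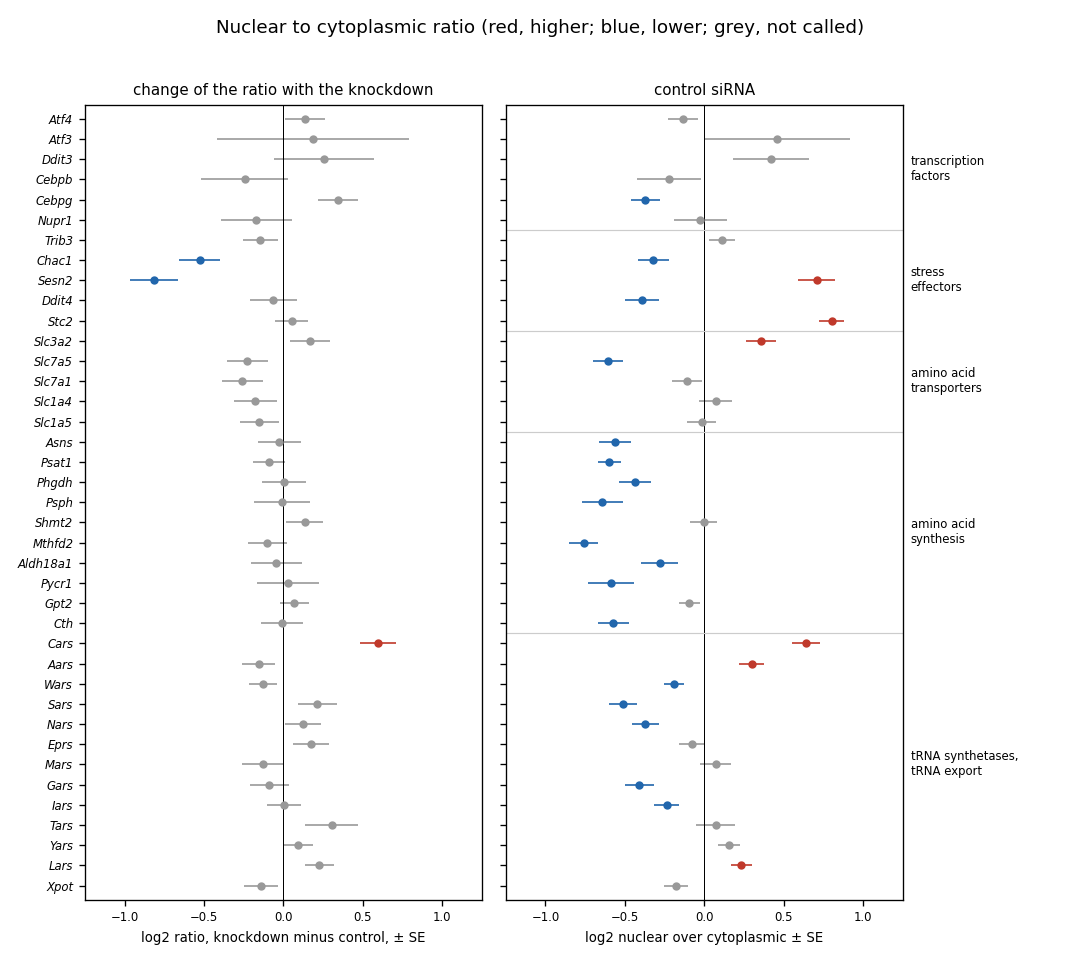
Log2 nuclear to cytoplasmic ratio of the 39 members with its SE: its change with the knockdown on the left, and its value under control siRNA on the right. Sesn2, Chac1 and Cars are the 3 coloured points on the left, and the genes of amino acid synthesis lie at or left of 0 on the right.

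The knockdown changed the nuclear to cytoplasmic ratio of 3 of 39 members, against 5.14% of all 9239 genes (3.83% higher, 1.31% lower). This count is near the background, so the 3 genes are given as a description. Sesn2 had 178, 169, 186 and 165 CPM in knockdown nuclei and 191, 156, 217 and 174 CPM in control nuclei, which overlapped. In cytoplasm it had 222, 173, 207 and 191 CPM in knockdown and 105, 96.3 and 138 CPM in control, which did not. Its ratio fell by 0.81 on the log2 scale (SE 0.15, edgeR adjusted p = 0.0066), so that the rise of Sesn2 was measured in cytoplasm (0.75, SE 0.10) and total lysate, and not in nuclei (-0.08, SE 0.10).

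Cars, the cysteinyl enzyme (chromosome 7, 143557230 to 143600090, minus strand), moved the other way. It had 323, 279, 351 and 315 CPM in knockdown nuclei and 241, 249.6, 287 and 262 CPM in control nuclei. In cytoplasm it had 140.1, 143, 131 and 151 CPM in knockdown and 179, 159.7 and 179 CPM in control. Nuclear levels were higher, with an overlap of 1 knockdown library, and cytoplasmic levels were all lower. The ratio of Cars rose by 0.60 (SE 0.11, edgeR adjusted p = 0.0074), with log2 fold changes of 0.29 in nuclei (SE 0.09) and -0.30 in cytoplasm (SE 0.08).

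Chac1 (chromosome 2, 119351229 to 119354381, plus strand) had 77.3, 73.3, 68.1 and 69.9 CPM in knockdown nuclei and 89.8, 91.2, 97.1 and 98.9 CPM in control nuclei, with no overlap. Its cytoplasmic libraries overlapped, at 135, 119, 151 and 144 CPM in knockdown and 109.9, 105 and 140.0 CPM in control. Chac1 was called in cytoplasm only with the replicate block. The ratio fell by 0.53 on the log2 scale (SE 0.13, edgeR adjusted p = 0.029), a call lost when any of 8 of 22 libraries was left out (adjusted p up to 0.074), while those of Sesn2 and Cars held in every case. The cytoplasmic control of the pEx5 line is 1 library, which was taken to vary like the other groups. The ratio test needs that library, so it is not among the 22 left out.

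**Figure D4:**
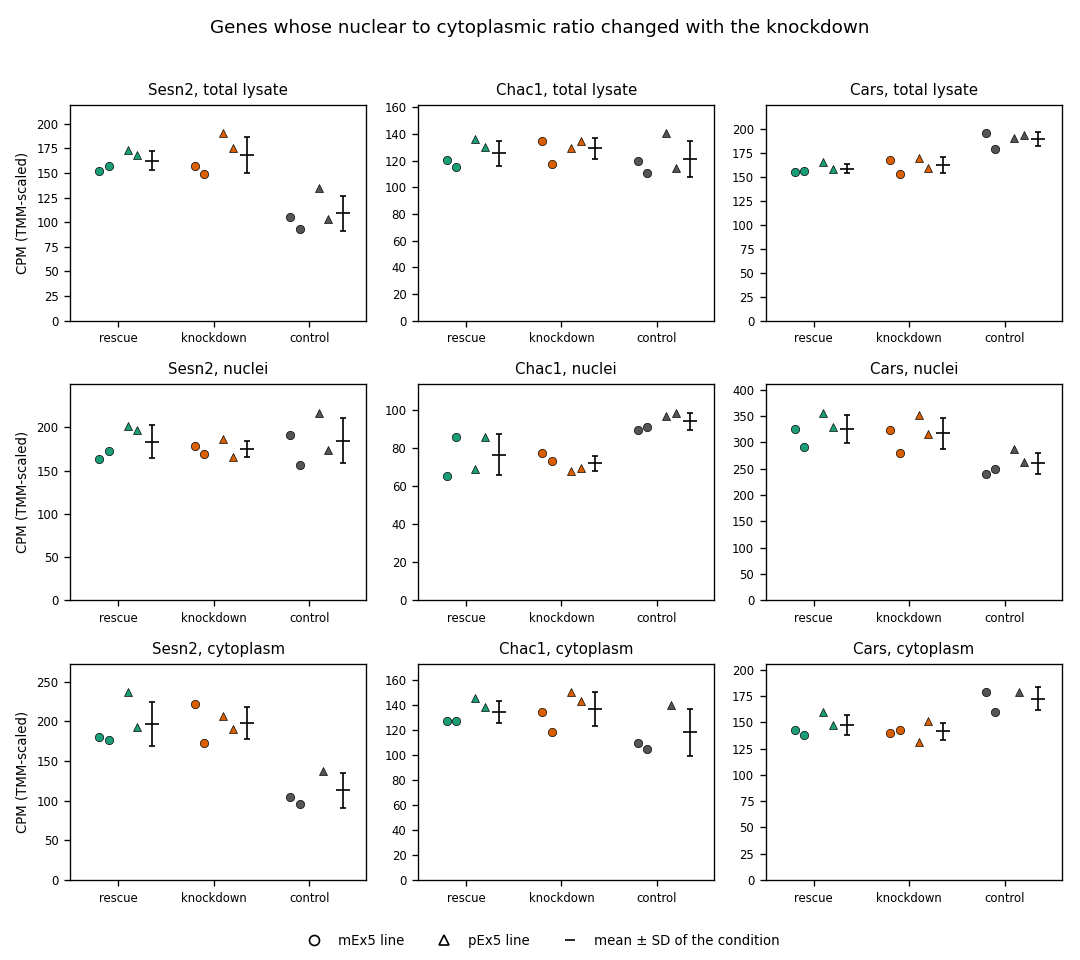
TMM-scaled CPM of Sesn2, Chac1 and Cars, in columns, in total lysate, nuclei and cytoplasm, in rows, for each rescue, knockdown and control library, from left to right, with the mean and SD of each condition. In cytoplasm Sesn2 is higher in rescue and knockdown than in control libraries and in nuclei it is not, and Cars is higher in nuclei and lower in cytoplasm.

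With Chtop supplied from the cDNA, no member passed the test against the knockdown. Chtop itself rose by 3.07 on the log2 scale over knockdown in total lysate (SE 0.12). No member was called in rescue against knockdown in any fraction, over both lines or in either line, where edgeR called 0.0217% of all genes in total lysate, 0.0108% in nuclei and 0.0433% in cytoplasm for the mean of the lines and 0.0108% in each line. DESeq2 called no member either, and at an unadjusted edgeR p under 0.05 there were 0 members in total lysate, 2 in nuclei (Slc7a1 and Trib3) and 3 in cytoplasm (Cebpb, Ddit3 and Sars), against 7.15%, 8.35% and 9.59% of all genes in these fractions. A p that misses the threshold does not show that the levels were alike, so the sizes and their errors are given here. In total lysate the members' log2 differences of rescue over knockdown ranged from -0.14 (Atf3) to 0.18 (Ddit4), with a median SE of 0.071.

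The genes that moved most with the knockdown show how far the rescue went. Slc3a2 had 586, 576, 635 and 586 CPM in rescue, of which 3 lay among the knockdown libraries and 1 above them, a difference of 0.01 (SE 0.06). Sesn2 had 152, 157, 173 and 168 CPM (difference -0.04, SE 0.08), Gpt2 had 151, 160.1, 142 and 162 CPM (-0.06, SE 0.07) and Sars had 598, 618, 671 and 599 CPM (0.05, SE 0.06). Ddit4 had 388, 347, 385 and 339 CPM in rescue, between most knockdown and all control libraries (0.18, SE 0.12, edgeR adjusted p = 0.73). Rescue and knockdown ranges overlapped for all 39 members in total lysate, where 3.36% of all genes had separate ranges. In nuclei Slc7a1 was lower in every rescue library than in any knockdown library (4.50% of all genes had separate ranges), and in cytoplasm Mthfd2 was likewise lower (-0.08, SE 0.06) and Sars higher (4.45% of all genes). Sars had 588, 567, 580.0 and 591 CPM in rescue cytoplasm and 494, 536, 465 and 556 CPM in knockdown cytoplasm, a difference of 0.18 (SE 0.07, edgeR adjusted p = 0.51). Against control siRNA, 13 members were lower and 5 higher in rescue total lysate (37.3% of all genes called, 19% lower and 18.3% higher), which uses the same control libraries as the knockdown comparison. Those values were -0.61 for Slc3a2, -0.49 for Slc7a5, -0.48 for Phgdh, -0.47 for Ddit4, -0.43 for Sars, 0.42 for Gpt2 and 0.58 for Sesn2.

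**Figure D5:**
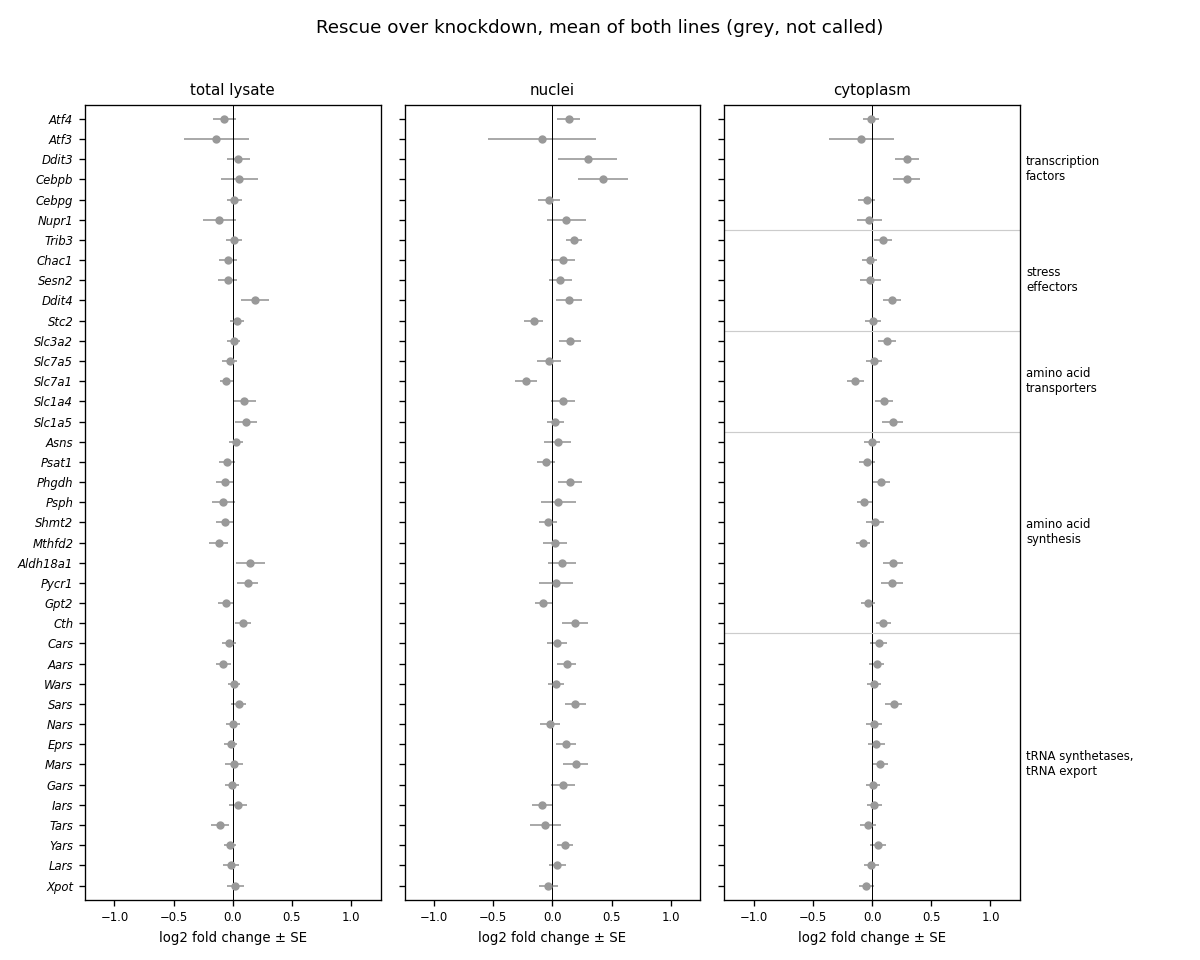
Rescue over knockdown as log2 fold change with its SE for the 39 members in total lysate, nuclei and cytoplasm, as the mean of both lines, on the same axis as the knockdown plot. All points are grey, since none was called, and in total lysate they lie between -0.14 and 0.18.

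In nuclei the members' rescue over knockdown differences ranged from -0.23 (Slc7a1) to 0.42 (Cebpb), and in cytoplasm from -0.14 (Slc7a1) to 0.30 (Ddit3, SE 0.10, edgeR adjusted p = 0.51). With the replicate block, Ddit3 (0.26, adjusted p = 0.022) and Mars (0.20, adjusted p = 0.048) were called higher in rescue nuclei, where the block called 6.84% of all genes. These 2 genes share exon bases on opposite strands. In cytoplasm, leaving out replicate 2 of the pEx5 knockdown gave 5 called members, Aldh18a1, Ddit3, Pycr1, Sars and Slc1a5, all higher in rescue, with Ddit3 at 0.42 (adjusted p = 0.0054). That fit called 14.1% of all genes, so that 5 of 39 members is near its background. Rescue against control gave 2 members higher and 5 lower in nuclei (23.7% of all genes, 11.5% higher and 12.2% lower). With the block these counts became 8 and 12 (49.8% of all genes). The 13 members that the block added included Atf4, at 803 to 916 CPM in rescue nuclei and 681 to 881 CPM in control nuclei. These ranges overlapped, and Atf4 was not called without the block. In cytoplasm, rescue against control gave 5 members higher and 8 lower (35.7% of all genes, 17.2% higher and 18.4% lower). The ratio of nuclei to cytoplasm passed the test in rescue against knockdown for no member by edgeR (0.0216% of all genes called) or DESeq2, with none at an unadjusted edgeR p under 0.05. Its differences were 0.08 for Sesn2 (SE 0.14) and -0.01 for Cars (SE 0.11).

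The isoforms with and without exon 5 were compared through the difference of their rescues over knockdown, pEx5 minus mEx5. No member was called in any fraction by edgeR (0.00% of all genes) or DESeq2, and none had an unadjusted edgeR p under 0.05. In total lysate this difference ranged from -0.23 (Slc7a1) to 0.26 (Cebpb) over the members, and its largest values were 0.42 in nuclei and 0.32 in cytoplasm, both for Cebpb.

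The knockdown was also followed in each line. In total lysate 10 members were called in the mEx5 line (23.7% of all genes) and 11 in the pEx5 line (25.5% of all genes), with 1 and 6 left without the library that mattered most, replicate 2 of the mEx5 control and replicate 1 of the pEx5 knockdown. In nuclei the counts were 2 (11.8% of all genes) and 10 (19.7% of all genes), and in cytoplasm 12 (31.6% of all genes) and 7 (14.4% of all genes), the last against a control of 1 library. In total lysate, 8 members passed in each line with 1 sign: Asns, Gpt2, Phgdh, Slc3a2, Slc7a5, Ddit4, Sesn2 and Sars. Of all genes, 18.9% did so, which is near the share of the members. A direct test of the line difference, added after the values were seen, called no member in any fraction with edgeR (0.00% of all genes) or DESeq2. At an unadjusted edgeR p under 0.05 there were 2 members in total lysate (Cth and Cebpb), 3 in nuclei (Cth, Stc2 and Xpot) and 3 in cytoplasm (Cth, Sesn2 and Cebpb). Of all genes, 1.21% passed that threshold in total lysate, 6.54% in nuclei and 2.74% in cytoplasm, so these few members are named as a description.

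Cebpb, a C/EBP partner of ATF4, had the widest gap between lines in total lysate. It had 72.6, 64.8, 74.4 and 63.0 CPM in knockdown libraries, against 54.5, 32.6, 85.5 and 75.0 CPM in control libraries, so that the lines had opposite signs through their controls. The log2 fold change was 0.66 in the mEx5 line (SE 0.22, edgeR adjusted p = 0.057) and -0.22 in the pEx5 line (SE 0.22). In nuclei it had 55.6, 38.3, 32 and 46.0 CPM in knockdown and 64.2, 62.0, 90.1 and 71.1 CPM in control, with no overlap and a fall of 0.73 on the log2 scale (SE 0.21, edgeR adjusted p = 0.024). In cytoplasm the fall was 0.48 (SE 0.12, edgeR adjusted p = 0.0098). The single exon of Cebpb shares 312 bases with Tmem189 on the other strand, which had 41.0 RPKM in control total lysate, and the sources used here do not state whether the counting used strand.

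Other genes of the same pathways were read from lists written for this purpose. These lists, too, were written with earlier results of these data known. Their counts are therefore a description and no independent support for the changes of the members. Of the 8 cytosolic tRNA synthetases outside the 39, 3 fell and none rose in total lysate: Qars (-0.79, SE 0.08), which loads glutamine, Hars (-0.32, SE 0.05) and Kars (-0.25, SE 0.06). Of the 3 scaffolds of the multisynthetase complex, Aimp1 fell (-0.52, SE 0.07) and the other 2 were not called. Among 14 mitochondrial synthetases 3 rose and 1 fell in total lysate, and 7 rose and 1 fell in nuclei, where their median was 0.36 and 15.4% of all genes were called higher and 16% lower. Rars2 (0.39, SE 0.09) and Tars2 (0.27, SE 0.06) rose and Fars2 (-0.49, SE 0.08) fell in total lysate.

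Of 19 other reported ATF4 targets, 10 fell and 1 rose in total lysate, with a median of -0.23. Ero1l, an oxidase of the endoplasmic reticulum, fell most (-1.0, SE 0.19), before the stress cytokine Gdf15 (-0.87, SE 0.06) and the cationic amino acid carrier Slc7a3 (-0.74, SE 0.08). The same list, read in the nuclear libraries and the cytoplasmic libraries, had 10 members lower and 2 higher each, against 31.4% of all genes called in nuclei and 40.7% in cytoplasm. Among 16 kinases and regulators of eIF2, 4 fell and 2 rose; Eif2s3x, a subunit of eIF2, fell (-0.33, SE 0.07), and Eif2b1 (0.39, SE 0.08), of its exchange factor, and Ppp1r15b (0.24, SE 0.05), which directs eIF2 dephosphorylation, rose.

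Of 9 folate and one-carbon enzymes, 5 rose and 2 fell, with Shmt1 (0.65, SE 0.07), the cytosolic serine hydroxymethyltransferase, and Mthfd2l (0.51, SE 0.14) higher and Aldh1l2 (-0.52, SE 0.10) lower; Mthfd2l lost its call in 3 of 12 cases of leaving out a library (adjusted p up to 0.062). Of 15 targets of ATF6 and XBP1, the other arms of the unfolded protein response, 5 rose and 1 fell, among them Manf (0.71, SE 0.14), Hyou1 (0.54, SE 0.10) and the chaperone Hspa5 (0.48, SE 0.07), all higher. The counts of these lists in total lysate are set against the 43.9% of all genes called there.

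The authors' deposited table marks genes whose RNA overlaps Chtop iCLIP sites, which are crosslinks of Chtop to RNA. It marks 24 of the 39 members (61.5%), against 4484 of all 9239 genes (48.5%). The members' median level in control total lysate was also higher, at 110 RPKM against 26.1 RPKM for all counted genes. Whether the mark goes with the level of a gene was not tested. Of the members called in total lysate, all 5 that rose and 7 of the 15 that fell carry the mark in the authors' deposited table, as do 12 of the 19 that were not called. By role, the authors' deposited table marks 4 of 5 transporters, 9 of 13 synthetases and exporter, 6 of 10 synthesis genes, 3 of 5 stress effectors and 2 of 6 transcription factors. Sesn2 and Cars carry the mark there and Chac1 does not.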

How the data were processed

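Poly(A) RNA-seq of 35 libraries in 18 groups was analysed. The tools named, per the submitters' processing notes, are Salmon 0.14.1 and DESeq2 without a version, with mm10 as genome, and the steps between them are not given in the sources used here. The deposited count table holds whole numbers, for 9239 genes. The deposited RPKM values are, per the file headers, scaled to length and library size, and 1 column of that table matches no labelled sample and stayed out. The authors' deposited table of iCLIP marks was read as deposited, and the authors' log2, ratio and normalized signal values were not used.

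Counts were tested per fraction, and for nuclei with cytoplasm together, with edgeR 4.0.16 under R 4.3.3 (filterByExpr, TMM, robust quasi-likelihood, Benjamini-Hochberg over all genes of the fit, calls under 0.05). This kept 9237 genes in total lysate, 9239 in nuclei and 9238 in cytoplasm, and the code was tested on simulated data. The p-values rest on the spread between replicates that the labels call biological. The joint fit of nuclei and cytoplasm had no term for the sample that both came from. Since the fractions were taken from shared samples, agreement between them is not independent. All 39 members are named, with values per library for Atf4 and for the called member with the largest change of each role. Others were chosen after their values were seen: Chtop, Atf3, Sesn2, Cars, Chac1, Cebpb, Slc7a5, Slc7a1, Asns, Phgdh, Aars and, in cytoplasm, Cth and Sars. Of other lists, up to 3 genes called in total lysate with the largest changes are named. Members and lists were chosen with earlier results of these data known. Replicate numbers come from the labels; correlations of deviations between libraries with the same number were 0.349 to 0.794 in total lysate and 0.525 to 0.720 in nuclei (15 pairs each), all over 0.1, and 0.0592 to 0.649 in cytoplasm (7 of 10 pairs over 0.1), so the numbers were taken to pair libraries in total lysate and nuclei. Alternatives were DESeq2 1.42.0, its size factors, library totals, no filter, the replicate block and leaving out each library. The only cytoplasmic control library of the pEx5 line could not be left out of comparisons that use it. Gene positions are from GENCODE M21 (mm10).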

Additional observations from a re-analysis of the deposited data

Results flagged for a closer look

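The change with the knockdown differed between nuclei and cytoplasm for 3 members, by the test of the ratio itself: Sesn2 (log2 -0.81), Chac1 (-0.53) and Cars (0.60). That count is near the background of 5.14% of all genes. In cytoplasm Cth had opposite directions in the lines in every library, lower in the mEx5 knockdown (49.3 and 56.0 CPM, against 73.8 and 74.3 CPM in control) and higher in the pEx5 knockdown (64.9 and 67.1 CPM, against 62.9 CPM in the only control library). The difference of pEx5 minus mEx5 was 0.56 (SE 0.15, edgeR adjusted p = 1.00), so it failed the correction. In total lysate Cebpb likewise had opposite directions in the lines, with a difference of -0.88 (SE 0.31, edgeR adjusted p = 1.00). Slc7a11, which is outside the count table, had a mean of 5.58 RPKM in knockdown cytoplasm, above all 3 control libraries, and was not tested.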

How the results depend on the processing

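No member reversed its direction in any called comparison. In total lysate the knockdown calls of 13 of 20 members held under every setting, in nuclei 5 of 13, in cytoplasm 12 of 20, of the ratio changes 2 of 3, and of the control ratios all but those of Aldh18a1, Iars and Wars among the 23 called. The replicate block gave 23 called members in the mEx5 and 20 in the pEx5 line of total lysate (46.6% and 48.4% of all genes), 24 in nuclei over both lines (15 and 22 by line, where it called 40.6% and 47.6% of all genes, so that 15 of 39 is at the background), 2 in nuclear rescue over knockdown and 20 in nuclear rescue against control. DESeq2 gave 16 in the mEx5 line of total lysate, 8 in the mEx5 line of nuclei and 11 in nuclear rescue against control, and library totals alone gave 4 in the mEx5 line of nuclei. Leaving out 1 library gave 14 to 19 called members in total lysate, 1 to 11 in its mEx5 and 6 to 11 in its pEx5 line. It gave 7 to 15 in nuclei, 0 to 2 and 3 to 10 in their mEx5 and pEx5 lines, and 4 to 7 in nuclear rescue against control. It gave 13 to 20 in cytoplasm, 6 to 16 in its mEx5 line, and 0 to 5 in cytoplasmic rescue over knockdown (0 to 7 in the pEx5 line). In these fits a group left with 1 library was taken to vary like the others. The cause of these changes was not tested. With 2 replicates a group, the smallest change called in total lysate was 0.19 on the log2 scale.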
